A study of Mus musculus with 8 samples.

Results

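Cathepsins are the main proteases of the lysosome. They are made as inactive precursors, sorted to acidic compartments mostly by mannose 6-phosphate receptors, activated there by cleavage, and held in check elsewhere by cystatins. Most are cysteine proteases of the papain family, while cathepsin D is an aspartic protease and cathepsin A a serine carboxypeptidase. In microglia, the resident macrophages of the brain, they degrade engulfed material and trim proteins for antigen presentation, and some are released when the cells are activated.

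The mRNA of 10 cathepsins, *Ctsa*, *Ctsb*, *Ctsc*, *Ctsd*, *Ctsf*, *Ctsh*, *Ctsk*, *Ctsl*, *Ctss* and *Ctsz*, was examined in cultured mouse microglia with and without lipopolysaccharide (LPS), a bacterial cell wall component that activates macrophages. The genes were found by Ensembl identifier among the 52636 genes of the deposited count table, and all 10 passed the filter on low counts. The cells were primary microglia of wild-type C57BL/6 mice (C57BL/6N pups in the methods of the study), shaken off mixed glial cultures made from neonatal brain at P2 to P3 and kept in medium with serum and CSF-1, a growth factor that microglia need. All were wild type and all received CSF-1; 4 libraries came from cultures given vehicle (Vehicle) and 4 from cultures given 5 µg/ml LPS for 24 h (LPS). The labels call the 4 libraries of a group biological replicates but do not say whether they came from separate animals, so the p-values measure only the spread between these libraries. Each library holds the RNA of a whole culture, and fewer cells of a type cannot be told apart from less RNA per cell. Neonatal microglia grown in serum differ from microglia of the adult brain, which limits the cultures as a model.

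The libraries held between 20071921 and 30604447 counts. Levels below are CPM, the counts a gene would have in a library scaled to 1e+06 counts, after TMM scaling, which corrects library totals for a few genes taking many reads, and differences are log2 fold changes of LPS against Vehicle from edgeR's quasi-likelihood test, called at a Benjamini-Hochberg adjusted p under 0.05 over the 13847 genes tested. TMM factors were 1.21 to 1.32 in Vehicle and 0.701 to 0.833 in LPS, so the scaling matters here: with library totals alone the median of all genes moved by -0.68 on the log2 scale. LPS changed much of the transcriptome, with 64.1% of all tested genes called, 30.3% higher and 33.8% lower. The microglial label held in Vehicle, where all 9 microglial and macrophage markers were detected, with summed levels of 4641 to 5819 CPM. In LPS the sum was 2302 to 2402 CPM, with 6 of the 9 lower, 1 (*Itgam*) higher and 2 not called, of which *Tmem119* was also called lower with same-numbered libraries as pairs.

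Of the 10 cathepsins, 2 were higher after LPS (*Ctsc* and *Ctsz*), 4 were lower (*Ctsf*, *Ctsd*, *Ctsa* and *Ctsb*) and 4 were not called (*Ctss*, *Ctsl*, *Ctsh* and *Ctsk*). The median log2 fold change of the 10 was -0.23, beside -0.11 over all tested genes. The count of 6 called lies close to the 64.1% of all genes, and the count is no result about cathepsins as a group. The genes are therefore described one by one, and differences between their responses were not tested. In each of the 6 called genes the 4 LPS libraries did not overlap the 4 Vehicle libraries, as in 60.2% of all genes (28.7% higher and 31.5% lower), and in each of the other 4 the groups overlapped.

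**Figure D1:**
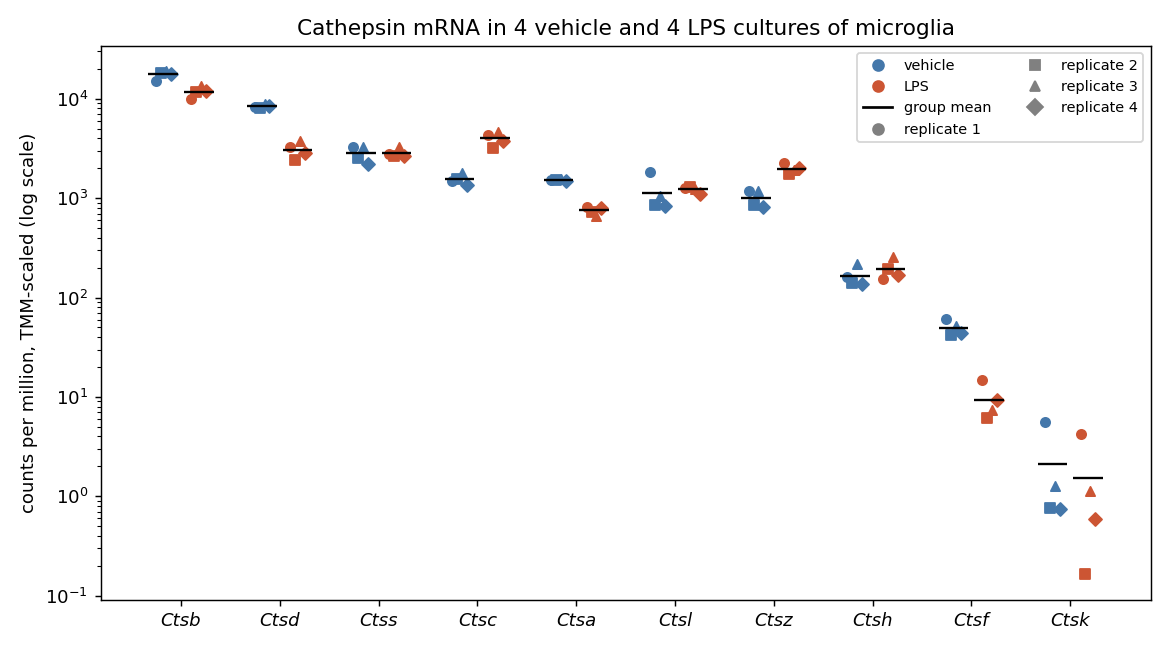
Level of each cathepsin in each library, in TMM-scaled CPM on a log axis; each point is 1 library, its shape gives the replicate number, blue is Vehicle, orange is LPS and the black bar is the mean of 4. The groups separate for *Ctsb*, *Ctsd*, *Ctsc*, *Ctsa*, *Ctsz* and *Ctsf* and overlap for *Ctss*, *Ctsl*, *Ctsh* and *Ctsk*, and replicate 1 is the highest *Ctsk* library of both groups.

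The promoters are shown first, for the letters that several of the genes share. Windows of 300 bases, 250 before and 50 after the start, were available from RefSeq (GRCm38.p6) for 8 of the 10 genes, none for *Ctsb* and *Ctsh*, with 2 start sites for *Ctsa* and hence 9 windows. Both strands were searched for fixed letters. The E-box CACGTG, the core of the sequence bound by the MiT/TFE transcription factors that drive lysosomal genes, was in windows of *Ctsa*, *Ctsd*, *Ctsf* and *Ctsl* and in 7.15% of 32851 promoters. Those 4 genes include all 3 genes with a window that were lower after LPS and 1 of the 5 others. *Ctsb*, which was also lower, had no window, and *Ctsa* held the E-box only in the window of its second start. A link between the E-box and the change was not tested. The 4 stretches below, 30 bases each and read 5′ to 3′ along the gene's strand, carry the E-box in capitals.
Ctsa: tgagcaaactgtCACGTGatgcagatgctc
Ctsd: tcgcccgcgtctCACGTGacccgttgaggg
Ctsf: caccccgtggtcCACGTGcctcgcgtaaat
Ctsl: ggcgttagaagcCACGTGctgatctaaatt

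The *Ctsa* stretch is chr2:164833749-164833778 (+), with the E-box 12 to 7 bases before the second of its RefSeq start sites, which lies inside the gene. The *Ctsd* stretch is chr7:142387908-142387937 (-), with the E-box 98 to 93 bases before the RefSeq start. That start and the stretch lie inside the gene as annotated. *Ctsa* held another E-box 5 to 10 bases after its second start, and *Ctsd* another 245 to 240 bases before its start. The *Ctsf* stretch is chr19:4855074-4855103 (+), with the E-box 79 to 74 bases before the start. *Ctsa*, *Ctsd* and *Ctsf* were called lower after LPS, and *Ctsl* was not called. The *Ctsl* stretch is chr13:64370739-64370768 (-), with the E-box 236 to 231 bases before the RefSeq start, and it too lies inside the gene as annotated. The CLEAR element, an E-box with GT before it and AC after it as in many lysosomal promoters, was in none of the 9 windows and in 0.326% of promoters. In *Ctsa* and *Ctsd* the letters around the E-box shown matched it at 9 of 10 positions, as in 1.31% of promoters, and in *Ctsf* and *Ctsl* at 7 of 10. The limit of 9 letters was set after the windows were seen.

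Elements of the interferon response, which LPS induces in macrophages, were in other genes. The interferon-stimulated response element, searched as GAAA, any 2 bases and GAAA again, was in the window of *Ctss* and in 3.44% of promoters. The gamma-activated site, searched as TTCNNNGAA, was in that of *Ctsc* and in 8.3% of promoters. Both are shown with the element in capitals.
Ctss: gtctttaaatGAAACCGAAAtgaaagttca
Ctsc: agctttggcgTTCCTTGAAaggcagaggt

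The *Ctss* stretch is chr3:95526755-95526784 (+), with the element 21 to 12 bases before the start, and the *Ctsc* stretch is chr7:88277839-88277867 (+), with the element 236 to 228 bases before it. The PU.1 core GAGGAA, for the factor that sets myeloid identity, was in *Ctsc*, *Ctsk* and *Ctss* and in 28.3% of promoters. The κB letters, GGG followed by any 5 bases and CC, were in *Ctsa*, *Ctsd* and *Ctsz*, but 50.8% of promoters hold them. A match is a description of letters and not a bound site.

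*Ctsc* encodes dipeptidyl peptidase I, which removes dipeptides and activates the granule serine proteases of immune cells. It lies at chr7:88278085-88310888 (+) in GRCm38. Its level was 1484, 1550, 1776 and 1367 CPM in the Vehicle libraries and 4293, 3235, 4666 and 3776 CPM in the LPS libraries. The lowest LPS library stood well above the highest Vehicle library. The mean went from 1544 ± 172 to 3993 ± 623 CPM (SD, n = 4 each), a 2.59-fold rise (log2 1.37, SE 0.17, edgeR adjusted p = 6.86e-05), and the 95% interval of the log2 change was 1.00 to 1.74. This was the larger of the 2 rises.

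*Ctsz* encodes cathepsin Z, a carboxypeptidase that also binds integrins through its propeptide. The gene lies at chr2:174427493-174439039 (-). Its level was 1183, 857, 1188 and 824 CPM in Vehicle and 2245, 1750, 1921 and 1997 CPM in LPS. Every LPS library was above every Vehicle library. The mean went from 1013 ± 200 to 1978 ± 206 CPM (SD, n = 4 each), a 1.95-fold rise (log2 0.97, SE 0.17, edgeR adjusted p = 7.78e-04). This call depended on the scaling: with library totals alone the log2 change was 0.30 and the adjusted p was 0.113.

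*Ctsf* encodes cathepsin F, a cysteine protease with a long cystatin-like propeptide that can process the invariant chain in macrophages. It lies at chr19:4855130-4860918 (+). Its level was 61.3, 42.2, 52.2 and 44.1 CPM in Vehicle and 14.7, 6.15, 7.42 and 9.25 CPM in LPS. The groups were far apart, and replicate 1 was the highest of each. The mean went from 49.9 ± 8.73 to 9.39 ± 3.78 CPM (SD, n = 4 each), 5.34-fold lower (log2 -2.42, SE 0.26, edgeR adjusted p = 3.30e-05). This was the largest fall of the 10, in a gene of low level.

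*Ctsd* encodes cathepsin D, the major aspartic protease of lysosomes, whose loss causes a neuronal storage disease. It lies at chr7:142375911-142388038 (-). Its level was 8261, 8014, 8795 and 8538 CPM in Vehicle and 3259, 2433, 3757 and 2880 CPM in LPS. The Vehicle libraries were tightly grouped and all LPS libraries lay far below them. The mean went from 8402 ± 339 to 3082 ± 563 CPM (SD, n = 4 each), 2.73-fold lower (log2 -1.45, SE 0.17, edgeR adjusted p = 6.51e-05). In absolute CPM this was a loss of the same order as that of *Ctsb*. The annotation places *Gm49369* over 34.4% of its exonic bases on the same strand, and that gene was at 0 counts in all libraries. Whether reads in the shared bases were counted for *Ctsd* or left out was not tested.

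*Ctsa* encodes cathepsin A, or protective protein, a carboxypeptidase that also stabilizes neuraminidase 1 and β-galactosidase in a lysosomal complex. The gene lies at chr2:164832873-164841032 (+). Its level was 1540, 1536, 1553 and 1503 CPM in Vehicle and 817, 730, 655 and 805 CPM in LPS. The Vehicle libraries were almost equal, and the groups did not overlap. The mean went from 1533 ± 21.1 to 752 ± 75.3 CPM (SD, n = 4 each), 2.04-fold lower (log2 -1.03, SE 0.12, edgeR adjusted p = 6.38e-05). Genes on the opposite strand, *Pltp* and *Neurl2*, cover 17.4% of its exonic bases, and *Pltp* reached 113 CPM at most. Whether the counting used strand is not given in the sources used here.

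Of the 2 enzymes that *Ctsa* protects, *Glb1* (β-galactosidase) fell from 187 ± 20.9 to 119 ± 17.7 CPM (SD, n = 4 each; log2 -0.65, SE 0.13, edgeR adjusted p = 0.00200). *Neu1* (neuraminidase 1) was at 99.3 ± 10.5 and 92.4 ± 18.3 CPM (log2 -0.10, SE 0.15, edgeR adjusted p = 0.571) and was not called.

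*Ctsb* encodes cathepsin B, a cysteine protease that trims dipeptides from the carboxyl end and was the cathepsin with the most counts. It lies at chr14:63122462-63145923 (+). Its level was 15275, 18109, 19000 and 17869 CPM in Vehicle and 10027, 11701, 13508 and 12077 CPM in LPS. The groups did not overlap, but the gap between them was about the SD of a group. The mean went from 17563 ± 1601 to 11828 ± 1431 CPM (SD, n = 4 each), 1.48-fold lower (log2 -0.57, SE 0.17, edgeR adjusted p = 0.0163). This was the smallest of the called changes. Without Vehicle replicate 2 the adjusted p was 0.0526 and the call was lost, as it was at a threshold of 0.01 and without both libraries of replicate 2 (0.104) or of replicate 4 (0.0874). *Fdft1* on the opposite strand covers 12.8% of the exonic bases of *Ctsb* and reached 7.18 CPM at most.

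The other 4 genes were not called, and each has an interval that leaves room for a change. *Ctss* encodes cathepsin S, which stays active at neutral pH, completes the processing of the invariant chain and is released by microglia. It lies at chr3:95526786-95556403 (+). Its level was 3265, 2532, 3282 and 2214 CPM in Vehicle and 2803, 2685, 3264 and 2658 CPM in LPS. The LPS libraries lay inside the range of the Vehicle libraries. The log2 change was 0.01 (SE 0.17, edgeR adjusted p = 0.945), with a 95% interval of -0.37 to 0.40. Its direction turned with the setting: with library totals alone *Ctss* was lower (log2 -0.66, adjusted p = 0.00176).

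*Ctsl* encodes cathepsin L, a strong endopeptidase of the lysosome, and lies at chr13:64359337-64370890 (-). Its level was 1833, 859, 1040 and 829 CPM in Vehicle and 1268, 1291, 1243 and 1107 CPM in LPS. Vehicle replicate 1 was far above the other 3, all of which were below all 4 LPS libraries. The log2 change was 0.11 (SE 0.25, edgeR adjusted p = 0.721), with a 95% interval of -0.45 to 0.66. Without Vehicle replicate 1 it was 0.46 with an adjusted p of 0.0256, and without both libraries of replicate 1 it was 0.41 with an adjusted p of 0.0458, so 1 library decided the call. With library totals alone the direction turned (log2 -0.56, adjusted p = 0.0554). *Gm47123* on the opposite strand covers 26.8% of the exonic bases of *Ctsl*, and *Gm49230* on the same strand 6.09%. Both were at 0 counts in all libraries.

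*Ctsh* encodes cathepsin H, an aminopeptidase of low level here, and lies at chr9:90054152-90076089 (+). Its level was 162, 141, 216 and 138 CPM in Vehicle and 154, 194, 255 and 169 CPM in LPS. Replicate 3 was the highest of each group, and the groups overlapped. The log2 change was 0.23 (SE 0.19, edgeR adjusted p = 0.311), with a 95% interval of -0.20 to 0.67. Without Vehicle replicate 3 it was 0.45 with an adjusted p of 0.0397, without both libraries of replicate 3 it was 0.31 with an adjusted p of 0.0430, and with library totals alone it was -0.45 with an adjusted p of 0.0218.

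**Figure D2:**
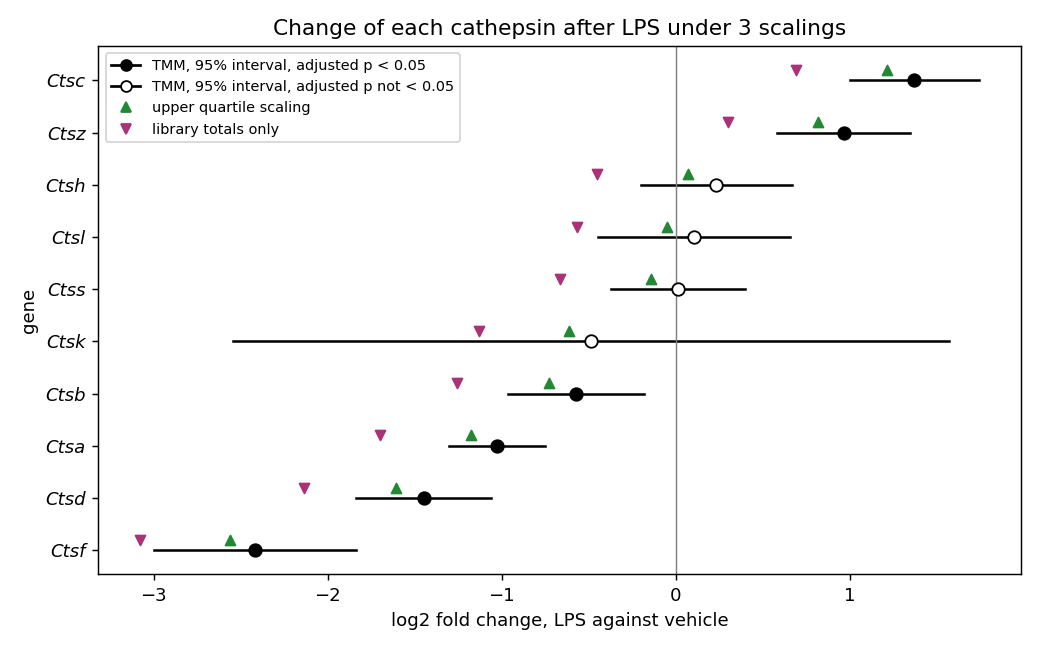
Log2 fold change of each cathepsin, LPS against Vehicle, with 4 libraries a group; circles are TMM-scaled edgeR estimates with their 95% interval (filled where the adjusted p was under 0.05), upward triangles use upper quartile scaling and downward triangles library totals only. With library totals only all 10 values move to the left, so that *Ctsh*, *Ctsl* and *Ctss* are below 0, while *Ctsc* (1.37 with TMM) and *Ctsz* (0.97) stay above 0.

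*Ctsk* encodes cathepsin K, the collagen-degrading protease of osteoclasts, and lies at chr3:95499256-95509362 (+). It was near the limit of detection, with 161, 22, 40 and 21 counts in Vehicle and 70, 3, 24 and 11 counts in LPS. This was 5.64, 0.761, 1.27 and 0.746 CPM in Vehicle and 4.19, 0.163, 1.12 and 0.595 CPM in LPS. Replicate 1 was the highest in both groups, several times above the rest. The log2 change was -0.48 (SE 0.92, edgeR adjusted p = 0.661), with a 95% interval of -2.54 to 1.57, and no difference was detected. LPS was below Vehicle in 4 of 4 same-numbered pairs. Without Vehicle replicate 1 the log2 change was 0.74 (adjusted p = 0.489).

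Markers of osteoclasts, the cell type best known for *Ctsk*, were examined beside it. The summed level of the 5 markers was 24.9 to 65.0 CPM in Vehicle and 5.25 to 10.4 CPM in LPS. Replicate 1 had the highest sum in both groups, but in LPS only *Acp5* of the 5 was highest there. *Acp5*, the osteoclast acid phosphatase, was at 12.6, 1.04, 2.35 and 0.89 CPM in Vehicle and 8.74, 5.77, 3.08 and 2.60 CPM in LPS. *Atp6v0d2*, a subunit of the proton pump, was at 47.7, 31.9, 21.0 and 23.1 CPM in Vehicle and 1.38, 0.817, 1.91 and 1.62 CPM in LPS. In Vehicle *Dcstamp* and *Ocstamp*, which act in cell fusion, were also highest in replicate 1, with 4.55 and 0.140 CPM. In LPS they were highest in replicates 3 and 2, with 0.187 and 1.14 CPM. *Calcr*, the calcitonin receptor, was at 0 counts in all Vehicle libraries and in LPS replicate 1. Of the 5, *Atp6v0d2* and *Dcstamp* fell after LPS, *Acp5* was not called and 2 were not tested. The part of such cells in the *Ctsk* values was not tested.

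**Figure D3:**
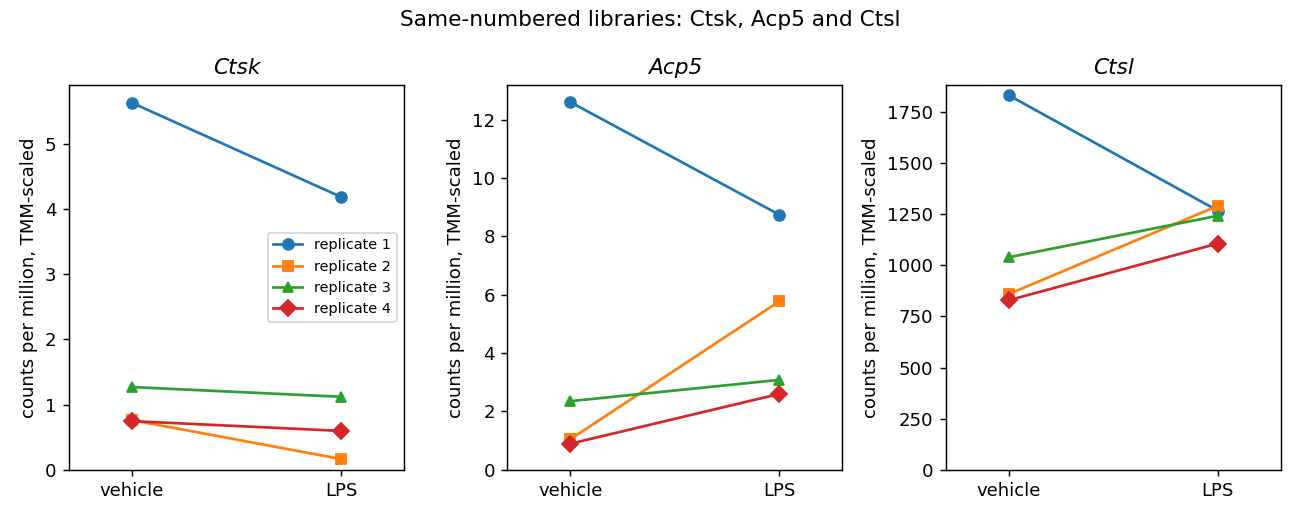
Levels of *Ctsk*, *Acp5* and *Ctsl* in TMM-scaled CPM; each line joins the Vehicle and the LPS library with the same replicate number, on axes that start at 0. Replicate 1 has the highest *Ctsk* and *Acp5* in both groups and, in Vehicle only, the highest *Ctsl* (1833 CPM).

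*Ctsk* and *Ctss* are neighbours on chromosome 3, both on the plus strand, with 17.4 kb between the end of the first and the start of the second. Their levels were far apart in every library. The log2 ratio of *Ctsk* to *Ctss* counts within a library, which does not depend on the scaling, was -10.92 ± 1.17 in Vehicle and -11.67 ± 1.82 in LPS (SD, n = 4 each). The difference was -0.76 (exact permutation test, two-sided, p = 0.4, where 0.0286 is the smallest p that 4 against 4 allows). With same-numbered libraries as pairs, the ratio was lower in LPS in each pair. An exact test that flips the sign of each pair's difference gave p = 0.125, the smallest p that 4 pairs allow.

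The 10 genes took 4.32% ± 0.134 of all counts in Vehicle and 2.04% ± 0.0575 in LPS (SD, n = 4 each). On the TMM scale their summed level was 34236 ± 1794 and 25917 ± 2319 CPM. Both scales put every LPS library below every Vehicle library, but by different amounts. *Ctsb* and *Ctsd* together set most of the sum.

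The make-up of the cathepsin counts does not depend on the scaling between libraries. *Ctsd* supplied 24.6% ± 0.889 of the cathepsin counts in Vehicle and 11.8% ± 1.39 in LPS (SD, n = 4 each). *Ctsc* supplied 4.50% ± 0.299 and 15.4% ± 1.61, and so passed *Ctsd*. *Ctsz* went from 2.95% ± 0.534 to 7.68% ± 1.04. These 3 shares moved furthest beside their spread.

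*Ctsb* stayed the largest part, at 51.3% ± 3.56 in Vehicle and 45.6% ± 3.71 in LPS, with overlapping ranges. *Ctss* supplied 8.23% ± 1.43 and 11.0% ± 0.385, between 6.64% and 9.87% in Vehicle and between 10.4% and 11.3% in LPS. Its share of the cathepsin counts was thus higher in every LPS library, although its level on the TMM scale overlapped. *Ctsl* supplied 3.35% ± 1.47 and 4.77% ± 0.556, with overlapping ranges. *Ctsa* supplied 4.48% ± 0.195 and 2.93% ± 0.473, without overlap.

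**Figure D4:**
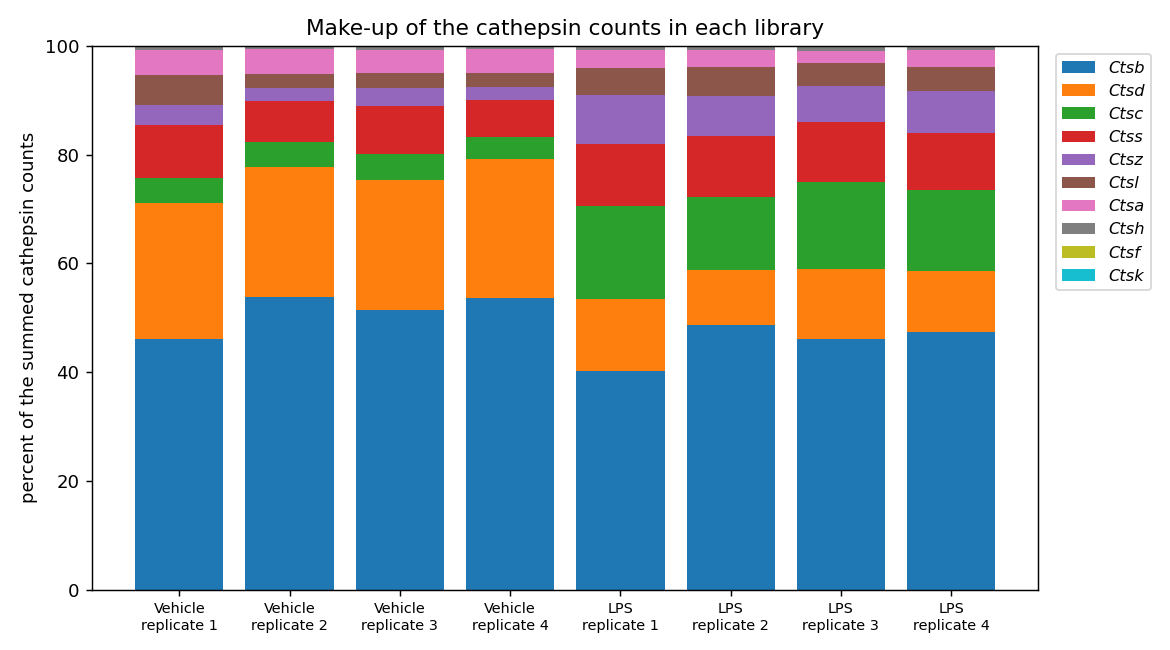
Share of each gene in the summed counts of the 10 cathepsins, in percent, with 1 stacked bar for each of the 4 Vehicle and 4 LPS libraries. *Ctsb* is the largest part of every bar, and *Ctsd* (orange) is 24.6% in Vehicle and 11.8% in LPS while *Ctsc* (green) is 4.50% and 15.4%.

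Levels between genes were compared as CPM per kilobase of the principal transcript, without correction for bases shared with other annotated genes. In Vehicle the order was *Ctsd* (3950 ± 159), *Ctsb* (3703 ± 338), *Ctss* (2084 ± 396), *Ctsz* (703 ± 139), *Ctsc* (619 ± 69.1), *Ctsl* (579 ± 239), *Ctsa* (420 ± 5.78), *Ctsh* (101 ± 22.3), *Ctsf* (25.2 ± 4.41) and *Ctsk* (1.39 ± 1.57; SD, n = 4 each). The ranges of *Ctsd* and *Ctsb* overlapped, and so did those of *Ctsz* and *Ctsc*, *Ctsc* and *Ctsl*, and *Ctsl* and *Ctsa*. The other neighbours were separate. In LPS the order was *Ctsb* (2494 ± 302), *Ctss* (2105 ± 208), *Ctsc* (1601 ± 250), *Ctsd* (1449 ± 265), *Ctsz* (1373 ± 143), *Ctsl* (623 ± 41.9), *Ctsa* (206 ± 20.6), *Ctsh* (119 ± 27.5), *Ctsf* (4.74 ± 1.91) and *Ctsk* (1.00 ± 1.21). Only *Ctsb* and *Ctss*, *Ctsc* and *Ctsd*, and *Ctsd* and *Ctsz* overlapped among neighbours. *Ctsd* thus went from place 1 to place 4, and *Ctsc* from place 5 to place 3. With the union of all exons as the length, *Ctss* came first in LPS, and *Ctsc*, which has long annotated exons outside its principal transcript, stayed below *Ctsz* and *Ctsd*.

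By the likeness of their profiles over the 8 libraries, the genes nearest to *Ctsc* were *Slc35b1* (Pearson r = 0.997), *Aldh1b1* (r = 0.996) and *Adgre1* (r = 0.995), the last of them encoding the macrophage marker F4/80. Those nearest to *Ctsf* were *Rnf180* (r = 0.995), *Bmf* (r = 0.995) and *Urod* (r = 0.994). The 8 libraries fall into 2 groups and share their depth, so that 1159 of the 8382 genes compared had an r over 0.95 with *Ctsc* and 441 with *Ctsf*, and the values are a description only.

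Of 13 further cathepsin genes, 10 were at 0 counts in all libraries, among them most of the placental cathepsins of rodents and *Ctsg* of neutrophil granules. *Ctso*, a cysteine protease, was at 61.9 ± 4.66 CPM in Vehicle and 75.9 ± 7.64 CPM in LPS (SD, n = 4 each; log2 0.29, SE 0.10, edgeR adjusted p = 0.0293) and was called higher, but it turned to -0.39 with library totals alone (adjusted p = 0.00180). *Ctse*, an aspartic protease of endosomes, fell from 7.90 ± 1.76 to 0.759 ± 0.282 CPM (log2 -3.36, SE 0.30, edgeR adjusted p = 1.05e-05). *Ctsd* and *Ctse*, both aspartic, were lower in every LPS library, as were 31.5% of all tested genes. These 2 genes, compared after their values were seen, give no result about the class.

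Of 11 genes of the cystatin and stefin inhibitors, 4 were at 0 counts, 3 were under the filter on low counts and 4 were tested. Of these 3 were higher, or 2 with library totals alone, and 1 was lower, beside 30.3% and 33.8% of all tested genes. *Stfa3*, 1 of the 3, had 0 counts in Vehicle and passed the filter only through the LPS libraries. Its call could only be higher, so it adds nothing to the comparison with all genes. The median log2 change of the 4 was 1.38, which is the same with *Stfa3* at its bound below because *Stfa3* is the highest of the 4. *Cst3*, or cystatin C, the secreted inhibitor with the highest level, was at 824, 887, 953 and 809 CPM in Vehicle and 629, 432, 236 and 458 CPM in LPS. All LPS libraries were lower (log2 -0.98, SE 0.25, edgeR adjusted p = 0.00669). *Cst7*, or cystatin F, which is sorted to lysosomes and there inhibits *Ctsc* among others, was at 26.5, 10.5, 26.9 and 12.04 CPM in Vehicle and 58.8, 74.7, 118 and 81.6 CPM in LPS. It was higher in every LPS library (log2 2.13, SE 0.35, edgeR adjusted p = 4.55e-04). *Cstb*, the cytosolic stefin B, rose from 200 ± 24.5 to 311 ± 22.7 CPM (log2 0.64, SE 0.12, edgeR adjusted p = 0.00111), a rise that was gone with library totals alone (log2 -0.038).

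*Stfa3*, a stefin A gene of mice, had 0 counts in all 4 Vehicle libraries and 422 to 3256 counts in the LPS libraries. Its levels in LPS were 193, 24.5, 152 and 22.8 CPM. Against a floor of 3 counts over the Vehicle group it was at least 3828-fold higher. The stefin A genes are close copies of one another. Only uniquely aligned reads were counted, so reads that matched several copies would be missing from these values.

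Of 10 genes for sorting and activation, 6 were lower, 1 was higher and 3 were not called, with a median log2 change of -0.62 beside -0.11 over all tested genes. The 7 of 10 called stand beside 64.1% of all tested genes, and the 6 lower beside 33.8%. With upper quartile scaling 7 were lower, and with library totals alone 8. The 2 mannose 6-phosphate receptors moved in opposite directions. *M6pr*, the cation-dependent receptor, rose from 290 ± 12.2 to 542 ± 57.2 CPM (SD, n = 4 each; log2 0.90, SE 0.11, edgeR adjusted p = 9.00e-05). *Igf2r*, the cation-independent receptor, was at 301, 143, 142 and 148 CPM in Vehicle and 88.0, 99.1, 92.3 and 91.9 CPM in LPS, and was lower in every LPS library (log2 -0.98, SE 0.24, edgeR adjusted p = 0.00522). Vehicle replicate 1 again stood above its group.

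*Sort1* encodes sortilin, a sorting receptor that does not need mannose 6-phosphate. Its level was 214, 155, 127 and 181 CPM in Vehicle and 9.40, 3.76, 4.15 and 3.84 CPM in LPS. Its fall (log2 -5.01, SE 0.34, edgeR adjusted p = 1.85e-06) was the largest on this list. *Gnptab* and *Nagpa*, enzymes that make the mannose 6-phosphate tag, fell by 0.78 and 1.49 on the log2 scale (edgeR adjusted p = 1.13e-04 and 5.68e-04). *Scarb2*, the receptor of β-glucocerebrosidase, fell by 1.04 (edgeR adjusted p = 2.16e-04).

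The 3 genes not called were the most abundant of the list. *Lgmn*, the asparaginyl endopeptidase that cleaves cathepsin precursors into 2 chains, was at 1955, 2327, 2196 and 2116 CPM in Vehicle and 1828, 3712, 2544 and 3353 CPM in LPS. The groups overlapped through LPS replicate 1 (log2 0.41, SE 0.22, edgeR adjusted p = 0.121). *Grn*, for progranulin, and *Psap*, for prosaposin, which bind each other and, in the case of progranulin, the precursor of cathepsin D, had log2 changes of 0.27 and -0.28 (edgeR adjusted p = 0.187 and 0.220), and with library totals alone both were lower (-0.40 and -0.96).

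Of 7 other lysosomal proteases, 6 were tested, of which 3 were lower, beside 33.8% of all tested genes, and none higher, with a median log2 change of -0.81. *Cpq*, which was not called (log2 -0.79, SE 0.32, edgeR adjusted p = 0.0541), was lower with same-numbered libraries as pairs (adjusted p = 4.85e-04), and both *Cpq* and *Scpep1* were lower with upper quartile scaling (0.0187 and 0.0458) and with library totals alone. *Dpp7*, a dipeptidyl peptidase, fell from 110 ± 1.49 to 32.6 ± 5.56 CPM (SD, n = 4 each; log2 -1.75, SE 0.12, edgeR adjusted p = 2.50e-06). *Prcp*, a carboxypeptidase, and *Tpp1*, the tripeptidyl peptidase lost in a childhood storage disease, fell by 1.24 and 0.82 on the log2 scale (edgeR adjusted p = 1.90e-04 and 7.75e-05).

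Of 7 substrates and partners, 3 were tested, of which *Glb1* was lower, beside 33.8% of all tested genes. *Neu1* and *Cd74* were not called. With library totals alone all 3 were lower (log2 -0.76, adjusted p = 0.00394 for *Neu1* and log2 -0.89, adjusted p = 0.0208 for *Cd74*). *Cd74*, the invariant chain that *Ctss* processes, was at 40.6, 20.8, 44.8 and 17.6 CPM in Vehicle and 28.7, 21.0, 37.4 and 19.7 CPM in LPS. The groups overlapped fully (log2 -0.21, SE 0.33, edgeR adjusted p = 0.585). *Gzma* and *Gzmb*, granzymes that *Ctsc* activates in lymphocytes, were at 0 counts in all libraries.

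The transcription factors that bind the E-box of lysosomal genes did not move together. *Tfeb* was at 28.1, 22.0, 25.4 and 21.9 CPM in Vehicle and 4.13, 9.04, 3.64 and 8.44 CPM in LPS, and fell (log2 -1.95, SE 0.29, edgeR adjusted p = 2.63e-04). *Tfe3* was at 137, 131, 149 and 128 CPM in Vehicle and 236, 240, 225 and 242 CPM in LPS, and rose (log2 0.79, SE 0.09, edgeR adjusted p = 6.29e-05), although with library totals alone it was at 0.12 and not called. *Mitf* and *Tfec* were not called, so of the 4 factors 1 was higher and 1 lower, beside 30.3% and 33.8% of all tested genes. The median log2 change of the 4 was -0.57, beside -0.11 over all tested genes. These counts are no result about the factors as a group. *Tfec* (log2 -0.94, SE 0.42, edgeR adjusted p = 0.0745) was lower with same-numbered libraries as pairs (adjusted p = 0.00129) and with upper quartile scaling (0.0371). With library totals alone *Mitf*, *Tfec* and *Tfeb* were lower and none was higher. The mRNA levels say nothing of where these proteins were in the cell.

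Markers of other brain cells were low and also moved with LPS. The summed levels in Vehicle and LPS were 19.98 to 45.8 and 40.6 to 123 CPM for 7 astrocyte markers, 89.95 to 135 and 15.5 to 20.5 CPM for 6 markers of oligodendrocytes and their precursors, and 5.84 to 16.3 and 0.70 to 4.61 CPM for 4 neuronal markers. They were 0.497 to 4.31 and 5.30 to 21.4 CPM for 6 fibroblast markers and 1.74 to 6.02 and 38.1 to 76.3 CPM for 3 endothelial markers. Most of each rising sum came from 1 gene, *Gja1*, *Dcn* or *Pecam1*. Of the 7 astrocyte markers only *Gja1* was called higher, *Gfap*, *Aqp4* and *Aldh1l1* were called lower, and 3 were not called. Of the 6 fibroblast markers 2 were tested, *Dcn*, which was higher, and *Pdgfrb*, which was not called. Among those under the filter, *Col1a1*, *Col1a2* and *Col3a1* had lower means in LPS and *Lum* a higher one. Both endothelial markers that were tested were higher, *Pecam1* and *Cdh5* (log2 4.33 and 2.98, edgeR adjusted p = 3.70e-05 and 1.37e-05). The third endothelial marker, *Cldn5*, was at 0 counts in every library. The part of these cells in the cathepsin values was not tested.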

How the data were processed

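RNA of 8 cultures was sequenced by the authors as single reads of 50 bases, aligned with GSNAP to GRCm38, and deposited as raw counts of uniquely aligned reads per Ensembl gene; the library kit and the use of strand in counting are not settled by the sources used here. Symbols came from GENCODE vM21 (52403 of 52636 genes matched). Genes were filtered with filterByExpr (minimum count 10, total 15), scaled by TMM and tested with edgeR 4.0.16 (R 4.3.3), group as the only term, over 13847 genes. The SE is the absolute log2 change divided by the root of F, and intervals are 95%. Likeness was computed where the average log2 CPM reached 3. In simulated counts for 14196 genes, the test called 83 of 100 genes changed by 1 and 97 of 100 changed by 2 (log2). Of its calls 5.26% were false, against 21.9% of those of DESeq2 over 23396 genes. The simulation changed no other genes, and it changed as many up as down, all above a minimum count. In the data 64.1% of tested genes were called, so these rates do not carry over to the real comparison.

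The members and gene lists were chosen with earlier results of these data known. Besides the members, the text names the largest called rise and fall of each list, the tested genes of the inhibitor, sorting and transcription factor lists whose average log2 CPM reached 5, and the 3 genes most like *Ctsc* and *Ctsf*; the other list genes were named after their values were seen. Same-numbered libraries deviated together in replicates 1 and 3 (r = 0.361 and 0.183 over 8382 genes, against at most -0.128 and -0.036 with another number). In replicates 2 and 4 (r = 0.183 and 0.130) another number reached 0.154 and 0.141, so a pairing was not clear there. Replicate numbers were treated as pairs in an alternative fit only. Alternatives were 2 other scalings, DESeq2 1.42.0, 2 filters, the replicate block, a threshold of 0.01 and leaving out libraries. A planned identity between the proteins was not computed.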

Additional observations from a re-analysis of the deposited data

Results flagged for a closer look

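*Ctsk* in Vehicle replicate 1 stood at 5.64 CPM (161 counts), far from the other 3 Vehicle libraries at 0.746 to 1.27 CPM (Dixon's criterion for 4 samples). Of 20 groups tested this was the only 1 to pass, about what chance gives, since it passes roughly 1 group in 20. LPS replicate 1 was also the highest *Ctsk* library of its group, at 4.19 CPM.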

How the results depend on the processing

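*Ctsa*, *Ctsc*, *Ctsd* and *Ctsf* kept their direction and their call in all 18 alternatives fitted for a gene. The replicate block, with same-numbered libraries as pairs, changed no call of a member (2 higher and 4 lower again, with 4110 genes higher and 4934 lower in all; *Ctsk* log2 -0.59, adjusted p = 0.172). *Ctsb* lost its call in 3 of these, with an adjusted p of at most 0.104, and *Ctsz* in 1. At a threshold of 0.01, a further alternative, *Ctsb* was lost too and 3 cathepsins were lower. With library totals only, 1 cathepsin was higher and 6 were lower, *Ctsh* and *Ctss* among them, and 1988 genes were higher and 8457 lower; log2 changes were -0.45 for *Ctsh*, -0.56 for *Ctsl* and -0.66 for *Ctss*. That scaling moved the median of all genes by -0.68, upper quartile scaling by -0.16 and leaving out the filter on low counts by -0.19. Upper quartile scaling gave 3589 genes higher and 5481 lower, with -0.047 for *Ctsl* and -0.14 for *Ctss*. *Ctss* was at -0.0187 without a filter and at -0.0428 where each library had to hold 10 counts. The cause of these turns was not tested beyond the shift of the median.

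Leaving out 1 library at a time gave 2 to 3 cathepsins higher and 3 to 4 lower, 3952 to 4393 genes higher and 4003 to 5015 lower, and log2 changes from -1.71 to 0.74 for *Ctsk*, from 0.01 to 0.46 for *Ctsl* and from -0.0628 to 0.15 for *Ctss*. The *Ctsk* to *Ctss* ratio differed by -1.53 to -0.06 (exact permutation p = 0.171 to 0.8). Leaving out both libraries of a replicate number was added after the data were seen, as were the other scalings and the block for the list genes: without replicate 2, *Ctsl* was at -0.0319 and *Ctss* at -0.0049, and without replicate 4 *Ctss* was at -0.0286. Depth limits *Ctsk* most among the members, with 3 to 161 counts in a library.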
